A study of Rattus norvegicus with 4 samples.

Results

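The genes described here are 9 transcription factors that pattern the embryo and that many adult tissues keep as a record of where they lie in the body: Zic1, Zic4, Lhx8, Shox2, Irx5, En1, Pax9, Wt1 and Meox1. They are 9 of the 32883 genes counted. They were picked by symbol for on-off differences between the fat depots in earlier results on the same libraries, with Hox and T-box genes left aside. With the classes used here, Lhx8 was on in both depots, and Meox1 overlapped between them in adipocytes and in stromal nuclei. The levels by tissue given below are the values that chose them, so they are described and not tested. The choice looked at adipocytes and stromal nuclei, and one of these is a side of every class comparison below, so the members' class differences are described too, as fold changes with their standard errors and no test.

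The tissues were thoracic aorta perivascular adipose tissue (taPVAT), the fat that wraps the chest aorta, and subscapular brown adipose tissue (BAT), the heat-producing fat at the shoulder blade, with 2 libraries each. All 4 came from naive male rats of the Dahl salt-sensitive strain SS/HsdMcwiCrl at 16 weeks of age. Nuclei of snap-frozen tissue were counted by droplet RNA sequencing, as unique molecular identifiers (UMIs). The series' design text gives 2 rats for each tissue, without saying whether a rat gave both, so p-values measure the spread between these few libraries.

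Zic proteins are zinc finger factors of the dorsal neural tube and somite, and Zic1 is widely used as a marker of classical brown fat. Lhx8 (a LIM homeobox factor), Shox2, Irx5 and En1 belong to homeobox families that set position along the limb, trunk and head, while Pax9 marks the sclerotome and pharyngeal pouches and Meox1 the somites. Wt1, a zinc finger factor, is made by the mesothelium, the cell sheet that lines body cavities and organs, and by stromal progenitors of visceral fat. Such factors act by binding the control regions of other genes, and cells descended from a given part of the embryo can go on making them in the adult.

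RefSeq's promoter table for assembly GRCr8 held a start site for 5 of the 9 genes: Zic4, Lhx8, En1, Pax9 and Wt1. The 250 bases before the start are shown for 2 genes that were higher in BAT (Zic4, En1) and 2 that were higher in taPVAT (Pax9, Wt1), 5′ to 3′ on the strand of the gene. Capitals mark the CCAAT box (CCAAT, or ATTGG on the other strand) and the GC box (GGGCGG or CCGCCC).
Zic4, chr8:100795852-100796101, + strand: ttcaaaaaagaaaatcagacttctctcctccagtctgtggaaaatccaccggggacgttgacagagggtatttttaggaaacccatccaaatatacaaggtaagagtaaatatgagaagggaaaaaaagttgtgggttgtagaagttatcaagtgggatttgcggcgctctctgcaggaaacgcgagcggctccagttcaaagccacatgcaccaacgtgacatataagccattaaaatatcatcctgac
En1, chr13:34303434-34303683, + strand: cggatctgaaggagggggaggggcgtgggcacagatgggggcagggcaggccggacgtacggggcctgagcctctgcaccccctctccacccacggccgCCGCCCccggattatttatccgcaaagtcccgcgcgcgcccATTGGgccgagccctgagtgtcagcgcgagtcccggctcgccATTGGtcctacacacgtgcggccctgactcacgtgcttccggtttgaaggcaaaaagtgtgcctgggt
Pax9, chr6:79921551-79921800, + strand: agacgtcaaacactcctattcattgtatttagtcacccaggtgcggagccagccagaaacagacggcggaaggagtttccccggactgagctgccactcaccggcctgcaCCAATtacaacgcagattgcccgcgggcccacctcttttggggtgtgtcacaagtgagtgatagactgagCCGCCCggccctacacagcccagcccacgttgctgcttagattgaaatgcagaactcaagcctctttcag
Wt1, chr3:112021759-112022008, + strand: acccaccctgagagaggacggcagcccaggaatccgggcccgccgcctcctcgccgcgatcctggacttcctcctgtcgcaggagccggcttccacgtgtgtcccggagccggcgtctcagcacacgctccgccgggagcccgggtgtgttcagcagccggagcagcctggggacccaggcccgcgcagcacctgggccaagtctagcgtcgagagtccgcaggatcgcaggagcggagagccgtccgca
The 2 genes of a pair did not look alike in base composition. The Zic4 window was 43.2% G or C with 8 CpG pairs, against 67.6% and 23 for En1, 56% and 12 for Pax9, and 71.6% and 27 for Wt1. The median over 33465 windows of this length was 51.2% with 5 CpG pairs. En1 held 2 CCAAT boxes and 1 GC box, Pax9 held 1 of each, and Zic4 and Wt1 held neither. Among all windows, 34.0% held a CCAAT box and 30.5% a GC box. No TATA box (TATAAA, or TTTATA), found in 12.9% of windows, and no homeodomain core TAATTA, found in 4.86%, lay in the 4 windows. A match of letters is a description and not a bound site, and the missing letters say nothing of the factors.

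The libraries held 14765 to 44637 barcodes and 63654436 to 158140959 UMIs, and 126 to 424 barcodes were shared between any 2 libraries. Nuclei were assigned to a class by UMIs of marker genes, which gave 9283 to 30420 adipocytes and 602 to 1432 stromal nuclei (fibroblasts and related mesenchymal cells) per library. Levels below are CPM, the UMIs of a gene per 1000000 UMIs of the class in that library. They are not corrected for gene length, so they are compared between classes and libraries and not between genes. Adipocyte RNA was found in the other classes too: the median of 8 adipocyte markers not used for the assignment stood in stromal nuclei at 49.8% to 72.8% of its level in adipocytes. Of 6 stromal markers not used for the assignment, 6 were higher in stromal nuclei than in adipocytes in 3 libraries and 5 in BAT replicate 2. In BAT replicate 2 only 3 of the 6 had their highest level in stromal nuclei. Summed over the 6, the stromal nuclei there lay below the adipocytes, at 2052 against 2175 CPM. Most of both sums was Ebf2, which is also a brown fat regulator. It stood at 1829 CPM in those stromal nuclei and 2164 CPM in the adipocytes. The other markers were each higher in the stromal nuclei. Median depth was 2923 to 4979 UMIs in adipocytes and 1954 to 2152 in stromal nuclei. BAT gave no mesothelial nuclei, taPVAT 70 and 31.

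In adipocytes, 6 of the 9 genes were higher in both BAT libraries than in both taPVAT libraries (Zic1, Zic4, Lhx8, Shox2, Irx5 and En1), 2 were higher in both taPVAT libraries (Pax9 and Wt1) and Meox1 overlapped. In stromal nuclei the libraries lay in the same order, but for Pax9 this rests on 5 UMIs against 2 (pooled ratio 2.53, exact 95% interval 0.414 to 26.5) and for Meox1 on 1 UMI. For Irx5 and En1 the order rests on 12 and 10 UMIs in BAT against 0 in taPVAT. The floor of 3 UMIs in taPVAT replicate 2 lay above their BAT replicate 2 levels. Among all genes tested, the libraries did not overlap for 19.9% in adipocytes (10.8% higher in BAT and 9.09% higher in taPVAT) and 25.2% in stromal nuclei (10.1% and 15.1%); the members were picked on this contrast, so nothing is read from their share. A stricter on-off rule, at most 3 UMIs in one tissue and at least 20 in the other, was met by 3 members in adipocytes (Zic1, Zic4, Irx5) and by 3 in stromal nuclei (Zic1, Zic4, Wt1), beside 0.143% and 0.334% of all genes with enough UMIs. With 2 libraries a tissue, the edgeR quasi-likelihood test across all genes called 0 of 15922 genes (0%) in adipocytes. There 330 had an unadjusted edgeR p under 0.05, and DESeq2 called 63. In stromal nuclei edgeR called 0.0733%, with 501 genes at an unadjusted p under 0.05, and DESeq2 called more. Just inside the on-off rule lay Irx5 in adipocytes, with 3 UMIs in taPVAT and 346 in BAT. Just outside it lay Pax9, with 4 UMIs in BAT adipocytes and 95 in taPVAT.

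**Figure D1:**
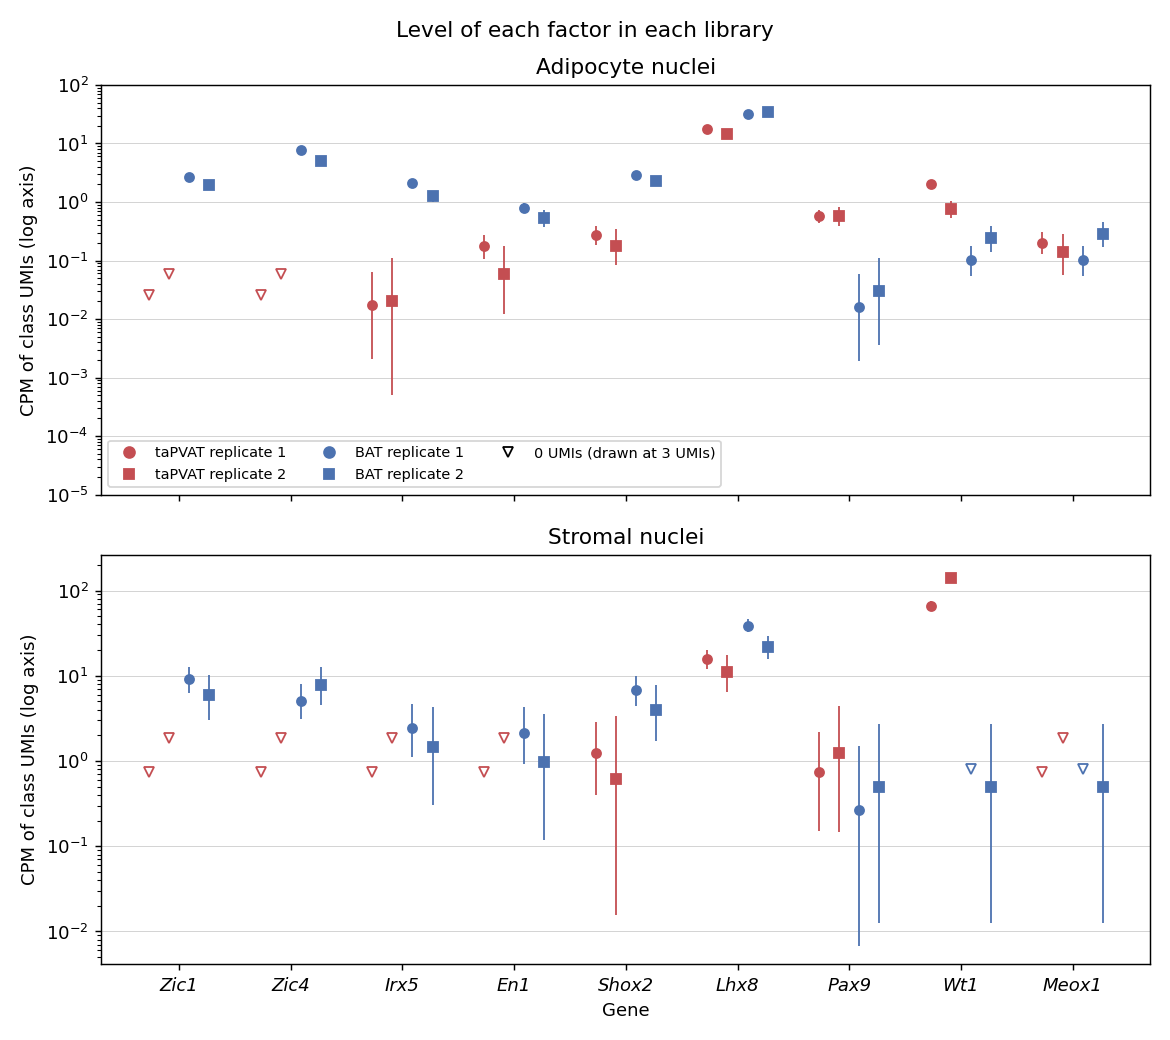
Level of each factor (CPM, log axis) in adipocyte nuclei (top) and stromal nuclei (bottom) of the 4 libraries; bars are exact 95% Poisson intervals and open triangles mark 0 UMIs, drawn at the level of 3 UMIs. Zic1 and Zic4 have no UMI in the 2 taPVAT libraries in either panel, while Lhx8 lies above 10 CPM in all 4 libraries.

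Zic1 (ENSRNOG00000014644) had 0 UMIs in the adipocytes of both taPVAT libraries, which allows up to 0.0262 CPM in replicate 1 and 0.0599 CPM in replicate 2. In BAT adipocytes it stood at 2.69 CPM in replicate 1 and 1.93 CPM in replicate 2, from 336 and 128 UMIs. Over the group the BAT level was at least 133-fold higher, taken against 3 UMIs in the taPVAT adipocytes together. No Zic1 transcript was seen in taPVAT stromal, mural or vascular endothelial nuclei either, where mural cells are the smooth muscle cells and pericytes of vessel walls. In mural and vascular endothelial nuclei the floor of 3 UMIs in taPVAT replicate 2 lay above both BAT levels. The split was therefore not resolved in those classes.

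Zic4 (ENSRNOG00000014871), the neighbour of Zic1 on chromosome 8, split the same way. No UMI of it was counted in taPVAT adipocytes, while BAT adipocytes held 7.86 CPM in replicate 1 and 5.09 CPM in replicate 2, from 983 and 338 UMIs. The BAT level was at least 379-fold higher by the same floor. Zic4 was also at 0 in taPVAT stromal, mural and vascular endothelial nuclei. In mural and vascular endothelial nuclei the same floor in taPVAT replicate 2 lay above the BAT replicate 2 level. The split was therefore not resolved in each library there. In RefSeq's GRCr8 annotation the spans of Zic1 and Zic4 overlap. The strand setting of the counting is not known here, and without it reads from the shared stretch cannot be told apart.

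In stromal nuclei of BAT, Zic1 stood at 9.17 and 5.89 CPM, from 34 and 12 UMIs, and Zic4 at 5.12 and 7.85 CPM, from 19 and 16 UMIs. Zic1 was thus at 341% and 305% of its adipocyte level, and Zic4 at 65.1% and 154%. The fitted log2 fold change of stromal nuclei over adipocytes of the same BAT libraries was 1.53 ± 0.45 (SE, edgeR) for Zic1 and -0.20 ± 0.48 for Zic4. The difference between the 2 genes was not tested.

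In single BAT adipocytes a Zic UMI was rare. A Zic1 UMI was found in 1.20% (exact 95% interval 1.07 to 1.34) of adipocytes of BAT replicate 1 and 0.629% (0.524 to 0.750) of replicate 2, and a Zic4 UMI in 3.49% and 1.63%. After each nucleus was thinned to 1000 UMIs the Zic4 shares were 0.804% and 0.413%. Vascular endothelial nuclei of BAT, which are not a known site of Zic1, held 1.02 and 1.03 CPM of it, 38.1% and 53.5% of the adipocyte level. Adipocyte markers stood in those nuclei at 66.1% and 63.6% of their adipocyte level, and the part of carried-over adipocyte RNA in the Zic levels of other classes was not tested. Among nuclei with less adipocyte RNA, the vascular endothelial nuclei of BAT held 0 Zic1 UMIs in both libraries, which allows 1.51 and 1.55 CPM, so a change from 1.02 and 1.03 CPM was not detectable at this depth. Stromal nuclei held 12.96 and 5.98 CPM under the same limit, from 19 and 6 UMIs.

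Irx5 (ENSRNOG00000011180), an Iroquois homeobox factor, was the third gene near absence in taPVAT. Its adipocyte level was 0.0175 and 0.0200 CPM in taPVAT, from 2 and 1 UMIs, and 2.10 and 1.25 CPM in BAT, from 263 and 83 UMIs. The ratio of the pooled levels was 99.2, with an exact 95% interval of 33.7 to 484 for counting error alone. In stromal nuclei it had 0 UMIs in both taPVAT libraries and 9 and 3 UMIs in BAT, 2.43 and 1.47 CPM. Vascular endothelial nuclei of BAT held 3.07 and 1.29 CPM, from 15 and 5 UMIs, and those of taPVAT none. In the GRCr8 annotation Irx5 overlaps the long noncoding RNA gene Crnde, and its reads cannot be told apart from those of Irx5 without the strand. Irx5 was thus higher in both BAT libraries in 3 classes, with levels in BAT that overlapped between them. In taPVAT replicate 2 the floor of 3 UMIs lay above the BAT replicate 2 level in stromal and vascular endothelial nuclei. Outside adipocytes the split was therefore not resolved in each library. Adipocyte markers stood at 66.5% and 65.3% of their adipocyte level in BAT stromal nuclei. In BAT vascular endothelial nuclei they stood at 66.1% and 63.6%. The part of carried-over adipocyte RNA in these Irx5 levels was not tested.

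En1 (ENSRNOG00000056580), the engrailed homeobox factor, was low in both tissues and lower in taPVAT. Adipocytes held 0.175 and 0.0599 CPM in taPVAT, from 20 and 3 UMIs, and 0.792 and 0.528 CPM in BAT, from 99 and 35 UMIs. The pooled BAT level was 5.01-fold higher (exact 95% interval 3.20 to 8.18), so En1 was lower but not off in taPVAT adipocytes. In stromal nuclei En1 had 0 UMIs in both taPVAT libraries and 8 and 2 UMIs in BAT. The floor of 3 UMIs in taPVAT replicate 2 lay above the BAT replicate 2 level there, so the stromal split was not resolved in each library.

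Lhx8 (ENSRNOG00000028348) was on in both depots. Its adipocyte level was 17.5 and 14.7 CPM in taPVAT and 31.5 and 34.0 CPM in BAT, from 734 to 3933 UMIs a library. The tissue means were 16.1 ± 2.04 (SD, n = 2) and 32.7 ± 1.76 CPM, a ratio of 1.94 between the pooled levels. Each BAT library lay above each taPVAT library. A Lhx8 UMI was found in 5.92% and 6.33% of taPVAT adipocytes and in 12.6% and 9.78% of BAT adipocytes; thinned to 1000 UMIs, the shares were 1.74%, 1.40%, 3.08% and 3.11%. In stromal nuclei Lhx8 stood at 15.5 and 11.03 CPM in taPVAT and 38.8 and 21.6 CPM in BAT.

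Within libraries the Lhx8 level in vascular endothelial nuclei was below that in adipocytes, at 65.8% and 17.3% of it in taPVAT and 62.5% and 44.1% in BAT. Adipocyte markers stood in those nuclei at 72.8%, 49.6%, 66.1% and 63.6% of their adipocyte level. The fitted log2 fold change was -1.25 ± 0.45 in taPVAT and -1.06 ± 0.37 in BAT (SE, edgeR). Over 11 alternatives it ran from -2.80 (without taPVAT replicate 1) to -0.68 (without taPVAT replicate 2) in taPVAT and from -1.94 (nuclei with less adipocyte RNA) to -0.73 (without BAT replicate 2) in BAT. In mural nuclei the log2 fold changes were -1.35 ± 0.49 and -1.08 ± 0.40. Among nuclei with less adipocyte RNA the mural values became -3.13 and -1.69, and the vascular endothelial values -2.19 and -1.94. The mural values rest on 3 and 0 Lhx8 UMIs in taPVAT and 8 and 11 in BAT. The vascular endothelial values rest on 12 and 2 UMIs in taPVAT and 26 and 12 in BAT. In stromal nuclei the log2 fold changes were -0.57 ± 0.42 in taPVAT and -0.30 ± 0.37 in BAT.

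Shox2 (ENSRNOG00000012478), a homeobox factor of the proximal limb and the cardiac pacemaker, had a tissue difference in adipocytes and none visible in mural cells. Adipocytes held 0.271 and 0.180 CPM in taPVAT and 2.84 and 2.26 CPM in BAT, from 31, 9, 355 and 150 UMIs, a pooled ratio of 10.9 (exact 95% interval 7.87 to 15.4). In stromal nuclei it stood at 1.23 and 0.613 CPM in taPVAT, from 5 and 1 UMIs, and at 6.74 and 3.93 CPM in BAT, from 25 and 8. In mural nuclei the 4 libraries lay close together, at 6.72 and 7.79 CPM in taPVAT and 7.93 and 6.64 CPM in BAT, from 21, 7, 18 and 13 UMIs. The pooled mural ratio of BAT over taPVAT was 1.05, with an interval of 0.611 to 1.82. In the GRCr8 annotation Shox2 overlaps the protein-coding gene Rsrc1, and the part of reads from it in the Shox2 level was not tested.

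Mural nuclei had the highest mean Shox2 level in both tissues, with means of 7.25 ± 0.75 (taPVAT) and 7.28 ± 0.91 CPM (BAT; SD, n = 2 each), though in BAT they overlapped stromal nuclei. Against adipocytes of the same libraries the log2 fold change in mural nuclei was 4.74 ± 0.58 in taPVAT and 1.38 ± 0.47 in BAT. With mural levels alike, these 2 values differ by the adipocyte level, which is what chose Shox2. Over 11 alternatives they ran from 4.39 to 5.55 and from 0.88 to 2.23. The highest of each was in nuclei with less adipocyte RNA, where the mural level lay between 12.4 and 12.8 CPM in the 4 libraries. These levels rest on 11 and 6 UMIs in taPVAT and 11 in each BAT library. In BAT stromal nuclei the log2 fold change was 0.88 ± 0.47.

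**Figure D2:**
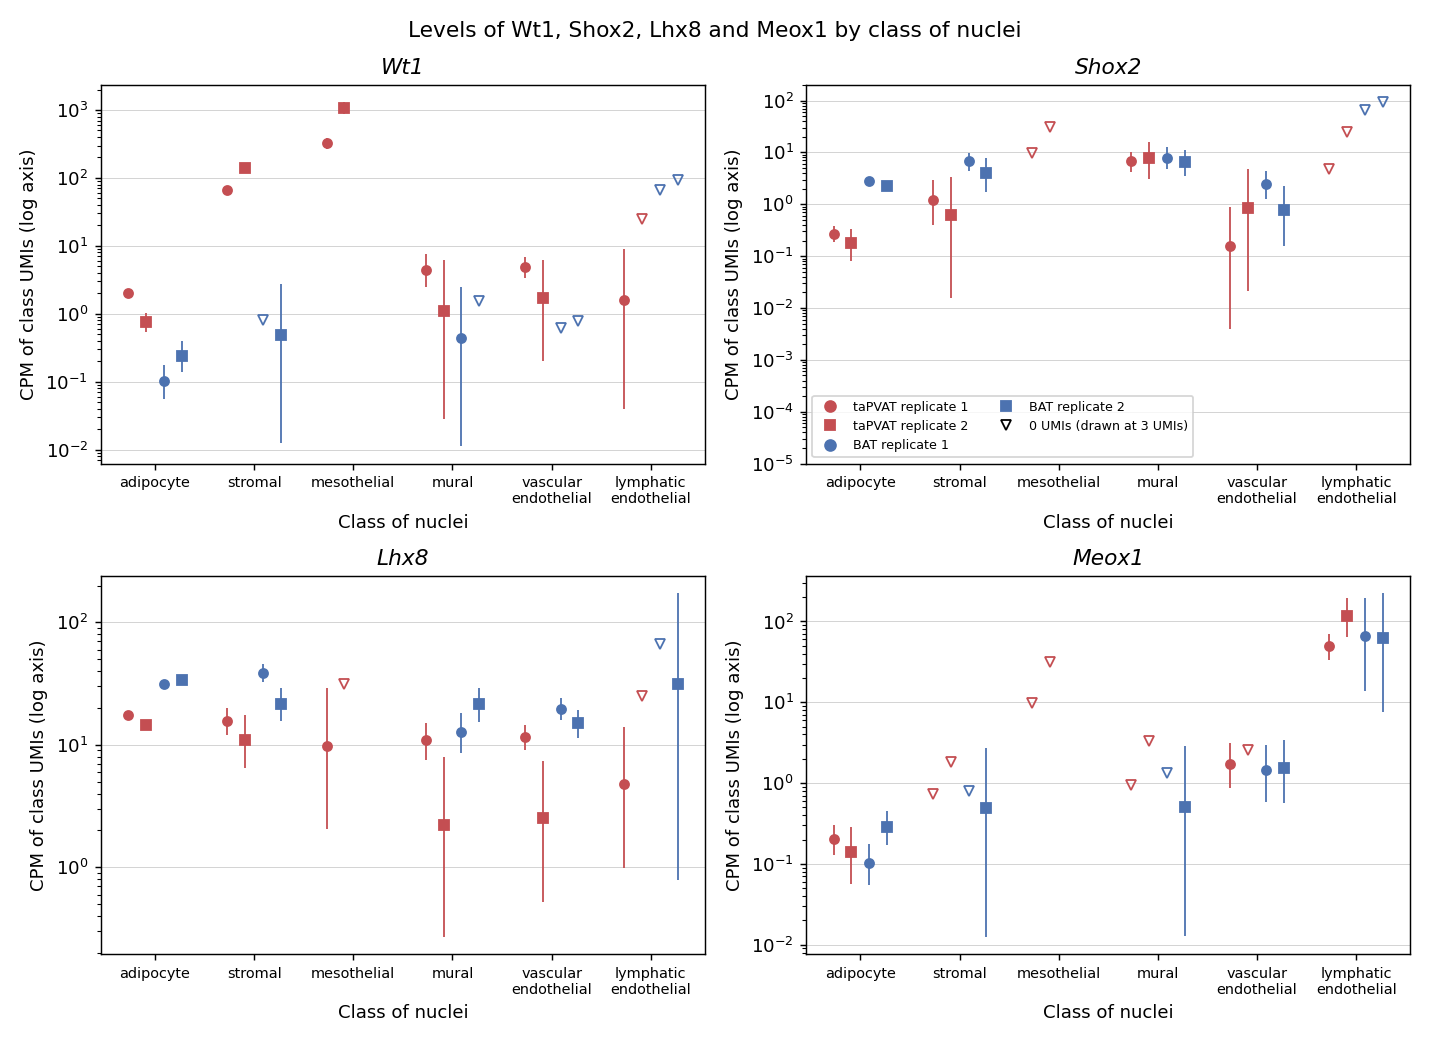
Levels of Wt1, Shox2, Lhx8 and Meox1 (CPM, log axis) by class of nuclei in the 4 libraries, for classes with at least 10 nuclei; bars are exact 95% Poisson intervals and open triangles mark 0 UMIs, drawn at 3 UMIs. Wt1 peaks in taPVAT mesothelial and stromal nuclei, Shox2 reaches 6.64 to 7.93 CPM in mural nuclei of all 4 libraries, and Meox1 is highest in lymphatic endothelial nuclei.

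Pax9 (ENSRNOG00000008826), a paired box factor, was higher in taPVAT. Adipocytes held 0.576 and 0.579 CPM in taPVAT, from 66 and 29 UMIs, and 0.0160 and 0.0301 CPM in BAT, from 2 UMIs each. The pooled ratio was 27.6 (exact 95% interval 10.4 to 103). In stromal nuclei the libraries held 3 and 2 UMIs in taPVAT and 1 each in BAT, too few to compare. In the GRCr8 annotation Pax9 overlaps Slc25a21, a mitochondrial carrier gene, which was itself higher in taPVAT adipocytes, at 2.16 and 2.12 CPM against 0.608 and 0.678 CPM in BAT. The part of reads from this neighbour in the Pax9 level was not tested.

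Wt1 (ENSRNOG00000013074) was on in taPVAT stroma and near absent from BAT. Stromal nuclei of taPVAT held 66.6 and 140 CPM, from 270 and 229 UMIs. BAT stromal nuclei held 0 UMIs in replicate 1, which allows 0.809 CPM, and 1 UMI in replicate 2, or 0.491 CPM. A Wt1 UMI was found in 12.6% (exact 95% interval 10.96 to 14.5) and 20.8% (17.6 to 24.2) of taPVAT stromal nuclei, against 0.585% and 0.388% of adipocytes in the same libraries. In taPVAT adipocytes the level was 2.02 and 0.759 CPM, and in BAT adipocytes 0.104 and 0.241 CPM. Summed over 9 mesothelial markers, the same adipocytes stood at 5.30 and 2.54 CPM in taPVAT and 1.62 and 1.45 CPM in BAT. Of these markers, Msln stood at 1.78 and 0.819 CPM against 0 and 0.0452 CPM. Krt8 and Bnc1 overlapped between the tissues and Krt19 had no UMI. The part of mesothelial RNA in the adipocyte Wt1 level was not tested.

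Within taPVAT the fitted log2 fold change of Wt1 in stromal nuclei over adipocytes was 5.89 ± 0.57, from 4.91 to 7.20 over 11 alternatives, with the stromal level above in 2 of 2 libraries; the high stromal level is what chose the gene. In mesothelial nuclei Wt1 reached 323 and 1076 CPM, from 98 and 103 UMIs in 70 and 31 nuclei. Mesothelial nuclei lay above adipocytes by a log2 fold change of 8.39 ± 0.63 and above stromal nuclei by 2.51 ± 0.51. Over the same alternatives these ran from 7.13 to 9.88 and from 2.22 to 2.72. In vascular endothelial nuclei of taPVAT the log2 fold change against adipocytes was 1.42 ± 0.67, from 0.88 to 1.89 over the alternatives, and in mural nuclei 1.19 ± 0.83, from 0.28 to 2.04. These rest on 33 and 15 Wt1 UMIs, most of them from replicate 1. Among nuclei with less adipocyte RNA, vascular endothelial nuclei held 20 and 1 UMIs in replicates 1 and 2, and mural nuclei 9 and 0. The part of carried-over stromal or mesothelial RNA in these levels was not tested.

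The taPVAT stromal nuclei were divided by the other mesothelial markers. Without a UMI of any of 9 mesothelial markers, stromal nuclei held 56.5 CPM of Wt1 in replicate 1 and 108 CPM in replicate 2, from 1348 and 568 nuclei. The 84 and 34 stromal nuclei with at least 1 such UMI held 213 and 583 CPM. At this depth a nucleus without a marker UMI can still hold mesothelial RNA, and the part of mesothelial RNA or nuclei in the stromal Wt1 level was not tested. Summed over those 9 markers, stromal nuclei stood at 26.1 and 33.1 CPM in taPVAT and 2.70 and 2.45 CPM in BAT, against 768 and 1693 CPM in mesothelial nuclei. Of the 6 markers used for the mesothelial assignment, Msln, Upk3b, Upk1b, Krt19 and Lrrn4 were at 0 in stromal nuclei of both BAT libraries and Bnc1 had 1 UMI in replicate 2. Of the others, Krt18 was at 0, Krt8 had 4 and 3 UMIs and Rspo1 6 and 1. Gpm6a, a further mesothelial marker that was left out of that sum because it is also found in adipocytes, stood at 234 and 129 CPM in the marker-free taPVAT stromal nuclei and at 79.2 and 60.8 CPM in those of BAT.

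**Figure D3:**
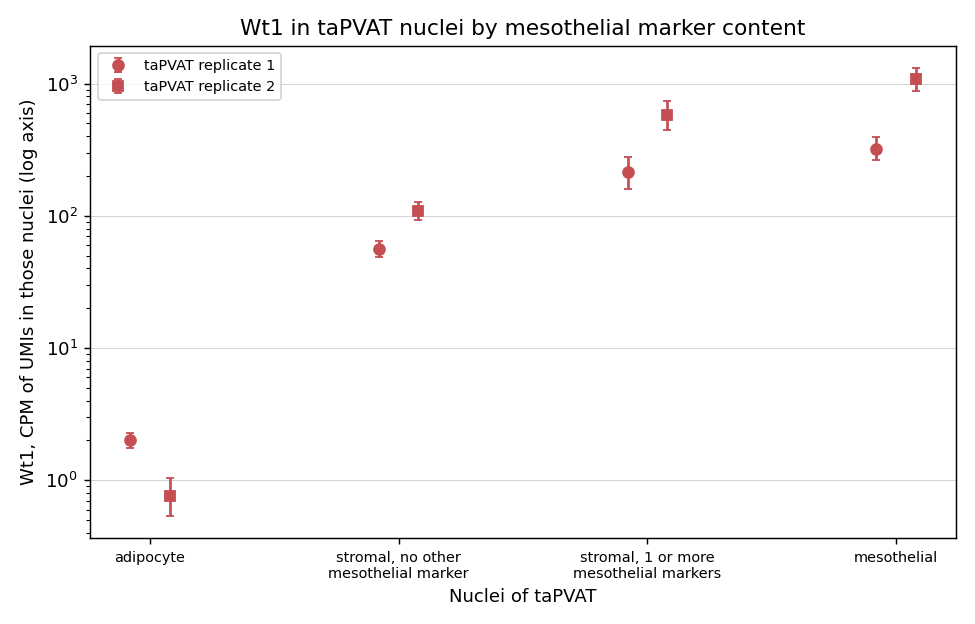
Wt1 level (CPM, log axis) in taPVAT adipocytes, in stromal nuclei without and with a UMI of 9 other mesothelial markers, and in mesothelial nuclei; points are the 2 libraries and bars exact 95% Poisson intervals. Marker-free stromal nuclei lie at 56.5 and 108 CPM, above the adipocytes at 2.02 and 0.759 CPM and below the mesothelial nuclei.

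Meox1 (ENSRNOG00000020803), a somite homeobox factor, was not an on-off gene in either class that the choice of genes used. Adipocytes held 0.201 and 0.140 CPM in taPVAT and 0.104 and 0.286 CPM in BAT, and the tissues overlapped. Stromal nuclei held a single Meox1 UMI over all 4 libraries, in BAT replicate 2. Its highest level was in lymphatic endothelial nuclei, at 49.2 and 117 CPM in taPVAT and 66.4 and 62.5 CPM in BAT. These rest on 31, 14, 3 and 2 UMIs from 240, 48, 14 and 11 nuclei, so the BAT values have wide exact 95% intervals, 13.7 to 194 and 7.57 to 226 CPM. Lymphatic nuclei made up 0.558% and 0.389% of nuclei in taPVAT and 0.0405% and 0.0411% in BAT, and they gave 34.4%, 53.8%, 10% and 4.65% of the Meox1 UMIs of the libraries. Over whole libraries Meox1 stood at 0.572 and 0.408 CPM in taPVAT and 0.190 and 0.463 CPM in BAT, which overlap.

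**Figure D4:**
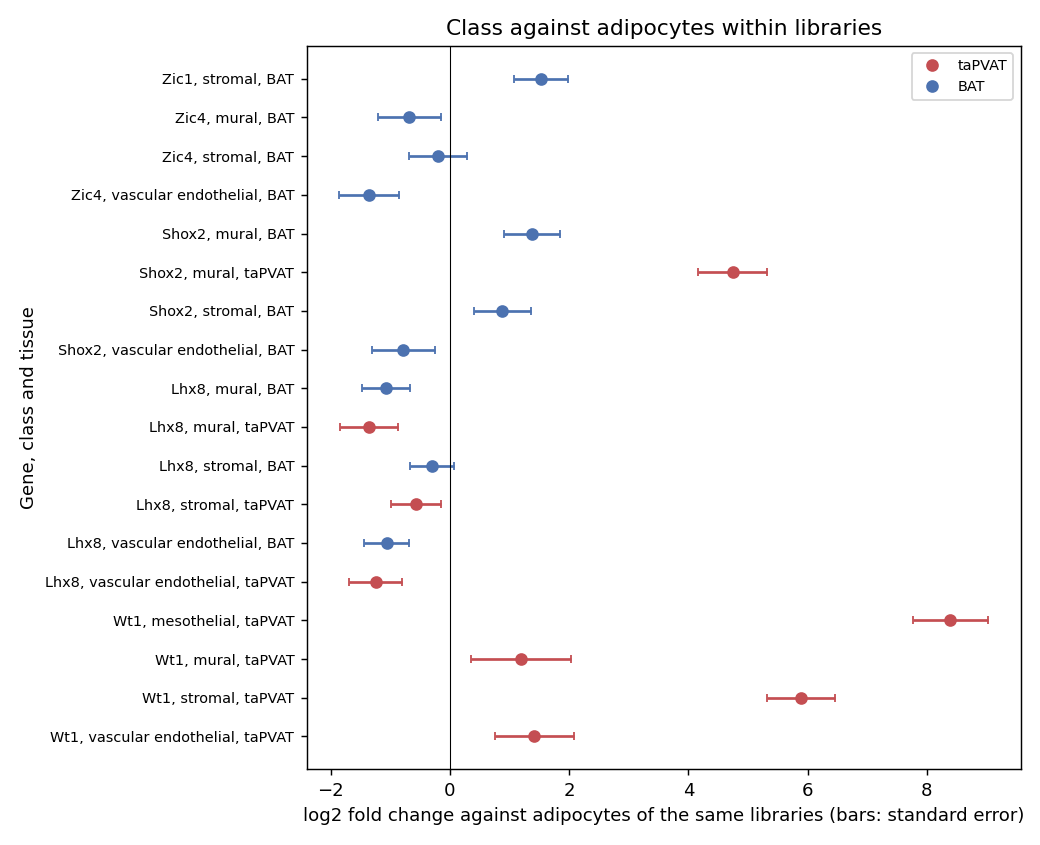
Log2 fold change of each factor in a class against adipocytes of the same libraries, by tissue, with standard errors from the edgeR fit and no test. Wt1 in taPVAT mesothelial (8.39) and stromal nuclei (5.89) and Shox2 in taPVAT mural nuclei (4.74) lie farthest from 0.

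Across the class comparisons 5 of the 9 genes passed the filter on low counts (Zic1, Zic4, Lhx8, Shox2 and Wt1), and Irx5, En1, Pax9 and Meox1 did not. This gave 19 fold changes with at least 10 UMIs of the gene in the class compared. That limit was set on the main fit and not applied again under the alternatives. Over all genes, edgeR called 20% (taPVAT) and 16.6% (BAT) between mural nuclei and adipocytes, 34.7% and 28.9% between vascular endothelial nuclei and adipocytes, and 16.3% between mesothelial nuclei and adipocytes and 3.8% between mesothelial and stromal nuclei of taPVAT; the members' values are not read against these shares.

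Each factor was also set beside the genes whose level ran most like it over 24 sums, 6 classes in each of 4 libraries, by Pearson's r of log2(CPM + 1) among 13395 genes. The points share libraries and depth, so r is a description. They also include the adipocyte and stromal sums of both tissues, which chose the members. A high r between 2 members higher in BAT is therefore set in part by the choice, and nothing is read from it. Zic1 and Irx5 were each other's nearest gene, at r = 0.853. Zic1 had no UMI in the taPVAT sums, and Irx5 had 3 there, all from adipocytes. Some BAT sums were small too: Zic1 had 2 UMIs from myeloid nuclei and 2 from lymphocytes (T or NK), and Irx5 had 3 and 4. En1 ran nearest to Zic1 (r = 0.694), Tbx15 (0.693) and Zic4 (0.643). Zic4 ran nearest to Dleu7 (0.931), Lhx8 to Stk16 (0.902), Shox2 to Spink8 (0.846) and Pax9 to Nkain4 (0.838). The 2 genes nearest to Wt1 have no name beyond a clone code, and the third was Wfdc21 (0.931). Meox1 had too few UMIs in these sums (88) to be placed.

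Of 31 family relatives, 7 passed the count filter, and 4 were called higher by edgeR in stromal nuclei than in adipocytes in both tissues: Prrx1, Prrx2, Lmx1a and Meox2. Of all genes tested between these classes, 31.8% in taPVAT and 22.5% in BAT were called, and 19.2% and 15% were called higher in stromal nuclei. For Prrx1, a homeobox factor of limb and connective tissue mesenchyme and a relative of Shox2, the levels were 193 to 245 CPM in stromal nuclei and 0.819 to 1.79 CPM in adipocytes of the 4 libraries. For Meox2, the relative of Meox1, they were 57.9 to 85.1 and 1.22 to 8.68 CPM. Of 38 other positional factors 12 passed the filter, and 9 in taPVAT and 5 in BAT were higher in stromal nuclei, among them Osr1 (log2 fold change 5.25 and 4.94) and Tshz3 (4.26 and 4.69). Genes near 0 in adipocytes, such as Prrx1, Prrx2 and Osr1, could pass the filter only through the classes where they are high, so these counts are set in part by the filter and nothing is read from them beside the 19.2% and 15% of all genes. Of 10 regulators of brown fat, all tested, 0 were called higher and 6 in taPVAT and 5 in BAT were called lower in stromal nuclei, by edgeR, beside 12.6% and 7.57% of all genes called lower. Ppargc1a, the coactivator of mitochondrial and thermogenic genes, stood at log2 fold changes of -1.53 and -1.06. Stromal nuclei were kept only with adipocyte marker RNA below the median adipocyte. Genes that run with those markers are thus set lower in part by the assignment, and nothing is read from the counts of regulators.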

How the data were processed

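The deposited files hold raw UMI counts per gene and barcode, made with Cell Ranger 7.1.0 per the file headers, on genome build Rnor_6.0 per the submitters' processing notes. Intron and strand settings are not stated in the headers or labels. The 9 members, gene lists and tests were chosen with earlier results of these data known, and the class limits were set on the data.

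Nuclei with at least 500 genes were kept. A non-adipocyte class needed 3 UMIs from 2 of its markers and 0.1% of the nucleus's UMIs (mesothelial: 2 UMIs from 2 markers), and adipocyte marker RNA below the median adipocyte. Adipocytes needed 5 UMIs from 3 markers, and no other class with 2 UMIs from 2 of its markers. Nuclei positive for both mesothelial and stromal markers were kept as mesothelial. Those positive for both lymphatic and vascular endothelial markers were kept as lymphatic. The mesothelial class can therefore hold nuclei that also met the stromal limits. Nuclei positive for other sets of several non-adipocyte classes were left out, and no doublet caller was run. Doublets of 2 like nuclei therefore remain. Doublets of an adipocyte with another nucleus also remain where their adipocyte marker RNA lies below the limit. Of 142 listed markers, 132 were found. UMIs were summed per library and class. Poisson and Clopper-Pearson 95% intervals, and the floor of 3 UMIs where none was counted, reflect counting error alone.

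Adipocyte, stromal, vascular endothelial, mural, myeloid and, in taPVAT, mesothelial nuclei, each with at least 20 nuclei in both libraries of a tissue (22 sums, 12590 genes, 9 residual degrees of freedom) were compared by the quasi-likelihood test of edgeR 4.0.16 (R 4.3.3) with library as a term, TMM scaling, filterByExpr and Benjamini-Hochberg adjustment, at 0.05. The members' planned tests are given as fold changes only, because the adipocyte or stromal side of each entered their choice. Alternatives were DESeq2 1.42.0, its size factors in edgeR, no filter, each library left out, other limits on nuclei, CPM without mitochondrial genes and the most abundant gene, AC134224.3, and, chosen after seeing the data, non-adipocyte nuclei with adipocyte RNA below 0.5 of the median adipocyte. Members are named in full. The 3 genes most like each, for members with at least 100 UMIs, are ranked by r among genes that reach 5 CPM. List genes named in the class comparisons are examples from those past the threshold, not always those with the largest fold change. On simulated counts, 50.5% of 4-fold and 5.21% of 2-fold changes were recovered among stromal against adipocyte sums of taPVAT (12211 genes). The simulation gave all classes a shared mean per gene and a fixed spread, and changed 93 tested genes 4-fold and 96 tested genes 2-fold. The real comparison called 31.8% of genes, so these shares are not the power of the real fit.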

Additional observations from a re-analysis of the deposited data

How the results depend on the processing

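Of 205 fold changes of a member between classes under an alternative, which are described and not tested, 3 changed sign: Zic4 in BAT stromal nuclei with DESeq2 (log2 fold change 0.032) and without BAT replicate 1 (0.37), and Lhx8 in BAT stromal nuclei without BAT replicate 2 (0.20); their cause was not tested. Without either BAT library these values ran from -0.72 to 0.37 for Zic4 and from -0.91 to 0.20 for Lhx8. Zic1 and Zic4 gave no value with the lower limit on adipocyte RNA, because fewer UMIs remained and the filter removed them. The counts of members higher in BAT (6) and in taPVAT (2) stayed equal to or within a set ratio of the main count in 35 of 36 values under an alternative. In the other, with nuclei of at least 1000 genes, 1 member was higher in taPVAT stromal nuclei. Meox1 joined a side when a BAT library was left out. In adipocytes it was higher in taPVAT without BAT replicate 2 (0.201 and 0.140 against 0.104 CPM). It was higher in BAT adipocytes without BAT replicate 1 (0.286 CPM), and in BAT stromal nuclei too, from 1 UMI. Of 162 differences in a member's mean CPM between the tissues under an alternative, 19 moved by more than 1 SD between the libraries and 143 did not.

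Counts of genes called moved more. Without a filter, 860 genes were called between mesothelial and stromal nuclei of taPVAT (479 with it). With at least 1000 genes per nucleus, 1824 were called in BAT stromal, 1603 in taPVAT mural, 1314 in BAT mural and 2279 in BAT vascular endothelial nuclei. The lower limit on adipocyte RNA gave 3637 in BAT mural nuclei. Leaving out each library gave 2284 to 4779 (taPVAT) and 1081 to 4527 (BAT) for stromal, 1552 to 3145 and 1014 to 3708 for mural, 2607 to 5013 and 1274 to 5331 for vascular endothelial nuclei, and 1034 to 2226 for mesothelial nuclei against adipocytes and 306 to 549 against stromal nuclei.

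Between the tissues, edgeR called 0 genes in adipocytes (330 at an unadjusted p under 0.05) and 8 in stromal nuclei. DESeq2 called 63 and 72, no filter 27 and 210. The stricter assignment gave 2 and the lower limit on adipocyte RNA 54 in stromal nuclei. Leaving out each library gave 0 to 112 and 0 to 144. With the replicate number as a block, 370 and 464 genes were called; deviations from the tissue means correlated within a number at r = 0.735 and 0.506, but there are 2 pairs only and the labels do not state a pairing. Depth limits Irx5, En1, Pax9 and Meox1 outside adipocytes to 20 UMIs or fewer per tissue in stromal, mural and vascular endothelial nuclei.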

Other observations

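Among relatives of the 9 genes that reached 5 CPM in both libraries of a tissue, Lmx1b, a LIM homeobox factor of dorsal limb and relative of Lhx8, stood higher in BAT in both classes. Its adipocyte level was 2.86 and 3.59 CPM in taPVAT and 13.5 and 7.87 CPM in BAT, and its stromal level 2.96 and 0.613 CPM against 14.6 and 7.85 CPM. Prrx2, a relative of Shox2, was higher in taPVAT stromal nuclei, at 12.8 and 22.1 CPM against 8.63 and 10.3 CPM. Among other positional factors at that level in stromal nuclei, Osr1, Meis1, Meis2 and Gata6 were each higher in both taPVAT libraries, and Twist2 was higher in both BAT libraries. Mesothelial markers moved with this in the same nuclei, at a summed 26.1 and 33.1 CPM in taPVAT and 2.70 and 2.45 CPM in BAT, and against stromal nuclei of taPVAT the mesothelial nuclei had log2 fold changes of 2.17 for Osr1 (edgeR adjusted p = 0.0659), 1.62 for Gata6 (adjusted p = 0.0263), 0.56 for Meis1 (adjusted p = 0.563) and -0.17 for Meis2 (adjusted p = 0.903); their part in these levels was not tested. Osr1, a zinc finger factor of intermediate mesoderm, stood at 11.3 and 22.1 CPM in taPVAT and 1.89 and 3.93 CPM in BAT. Meis2, a cofactor of Hox proteins, stood at 684 and 728 CPM against 404 and 282 CPM. Of the 10 brown fat regulators 8 overlapped between the tissues in adipocytes, and Esrrg and Klf15 were higher in BAT; of all genes, 19.9% did not overlap there and 10.8% were higher in BAT. In stromal nuclei 25.2% of all genes did not overlap, 15.1% higher in taPVAT and 10.1% higher in BAT. These levels are descriptions. Across all genes, edgeR called 0 of 15922 between the tissues in adipocytes, with 330 at an unadjusted p under 0.05 and 63 called by DESeq2. In stromal nuclei edgeR called 8 of 10911, with 501 at an unadjusted p under 0.05, and DESeq2 called more.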
